A study of Mus musculus with 24 samples.

Results

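R339Q and R342C are missense substitutions of CTCF that replace 2 arginines of the same DNA-binding module, zinc finger 3, and they were compared here with each other through total RNA of mouse embryonic stem cells. The comparison took the 2 libraries of R339Q ID and the 2 libraries of R342C ID, 4 of the 24 libraries of the series, by the genotype, treatment and replicate in their labels. Each substitution was carried by a Ctcf transgene that doxycycline switches on, in a line of its own made from E14Tg2a cells (strain 129/Ola) whose endogenous CTCF bears an auxin-inducible degron. Both lines received 500 µM indole-3-acetic acid (IAA, an auxin that triggers degradation of the endogenous protein) and 1 µg/ml doxycycline for 2 days, a treatment abbreviated ID. Both grew without feeder cells in serum with leukemia inhibitory factor, the GSK3 inhibitor CHIR99021 and the MEK inhibitor PD0325901. The reference groups, with 2 libraries each, were WT ID (wild-type transgene, IAA and doxycycline) and WT IAA (the same line with IAA alone, so without CTCF from the transgene and without doxycycline). Because each substitution was in 1 line, an effect of the substitution and a difference between lines cannot be told apart. Whether replicates came from separate cultures is not stated, and p-values here reflect only the variation among the sampled libraries, which could be technical.

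CTCF binds DNA through a row of C2H2 zinc fingers, of which the central ones read the core of its motif. At bound sites it stops loop extrusion by cohesin and so sets the borders of chromatin domains and the contacts between enhancers and promoters. In embryonic stem cells its removal changes the level of many genes while the stem cell identity is kept for the first days.

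The coding sequence of finger 3 is printed to show how close the 2 altered codons lie. In the mouse reference (mm10, GENCODE M21) the finger spans residues 324 to 345 of the 736-residue protein and lies in exon 5 of Ctcf at chr8:105666676-105666741 on the plus strand. The capitals mark the codons altered in R339Q (CGG, chr8:105666721-105666723) and in R342C (CGT, chr8:105666730-105666732), both of which encode arginine.
Ctcf finger 3: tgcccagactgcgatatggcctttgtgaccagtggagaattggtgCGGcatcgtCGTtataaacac
A search for the C2H2 pattern in the translated reference matched 10 fingers, and this one is the third in order.

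Reads recovered from the deposited values came to 44195877 and 34697629 in R339Q ID and to 77141117 and 35368678 in R342C ID, so R342C ID replicate 1 was the deepest of the 4. Mitochondrial genes took 2.06% to 2.80% of the reads in these 4 libraries. The standard deviation over genes of the log2 difference between replicates was 0.348 in R339Q ID and 0.419 in R342C ID. The 10 stem cell markers checked summed to between 9002 and 10280 TPM (transcript abundance scaled by gene length and library total) in the 4 libraries. Markers of primitive endoderm summed to at most 22.4 TPM, of mesoderm to at most 7.86 TPM and of fibroblasts to at most 11.3 TPM, with Sox17, Sox7, Foxa2, Mesp1, Col1a2, Col3a1 and Prrx1 under 1 TPM in every library. Neural ectoderm markers summed to 123 and 128 TPM in R339Q ID and to 84.4 and 73.9 TPM in R342C ID, a fall carried by Tubb3 (91.7 and 89.6 against 39.2 and 29.3 TPM). Sox1 went the other way (4.399 and 4.617 against 9.09 and 6.81 TPM, log2 difference of normalized counts 0.72, called), and Nes was at 26.5 and 33.3 against 35.8 and 37.6 TPM (not called). Trophectoderm markers summed to 98.5 and 93.6 TPM against 50.0 and 56.1 TPM, mostly through Krt8. Gata3 of that set went the other way (0.684 and 0.589 against 1.01 and 1.46 TPM, not called).

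The files do not separate endogenous from transgene transcripts of Ctcf, whose signal was 10247 and 10095 normalized counts in R339Q ID and 8262 and 8902 in R342C ID. Both R342C ID libraries lay below both R339Q ID libraries, by a log2 difference of −0.25 ± 0.06, adjusted p = 0.00633. Each of these alternatives lost the call by itself: leaving out R339Q ID replicate 1, leaving out R342C ID replicate 1, TPM, and the 4 libraries alone. Transcript level says nothing of how much protein was present.

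The 2 lines differed at 4991 of the 18713 genes tested (26.7%, adjusted p under 0.05, limma). Of these, 2038 were higher in R342C ID and 2953 were lower, and 877 differed at least 2-fold (485 higher, 392 lower). The median size of a called difference was 0.49 on the log2 scale, against a median size of 0.25 over all genes tested, whose signed median was −0.02. In 4982 of the called genes the 2 + 2 libraries did not overlap, against 63.0% of all genes tested. The smallest called differences were −0.15 for Trp53bp1, 0.16 for Atp13a3 and −0.16 for Itch, and each of these calls was lost whichever of the 4 libraries was left out. With TPM in place of normalized counts, 4167 genes were called and the split turned to 2393 higher and 1774 lower (57.4% higher against 40.8%), so the surplus of lower genes depends on the scaling. Leaving out 1 library reduced the count to between 2229 (without R339Q ID replicate 1) and 4588, with 3052 without R342C ID replicate 1. Against WT ID, 4018 genes (21.5%) were called in R339Q ID, 11.8% of all tested being higher and 9.7% lower. In R342C ID 4365 (23.3%) were called against WT ID, 10.0% higher and 13.3% lower. Those comparisons share the WT ID libraries, so only their own values are set side by side below. The contrast between the lines is also the test of whether their departures from WT ID differ.

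Ranking was limited to called genes that averaged 50 or more, did not overlap and bore no model or clone name. Within that limit, the 12 largest increases in R342C ID over R339Q ID included signalling genes, transcription factors and channels, each at least 4.30-fold apart. The Notch ligand gene Dll1 stood at 33.9 and 38.0 normalized counts in R339Q ID and 295 and 430.3 in R342C ID, a log2 difference of 3.28 ± 0.68, adjusted p = 0.00166. WT ID held 155 and 70.2, between the 2 lines. The endothelial and blood transcription factor gene Gata2, also listed here as a trophectoderm gene, stood at 425 and 454 normalized counts in R339Q ID and 1992 and 1800.1 in R342C ID, and at 1174 and 976 in WT ID. Its log2 difference was 2.10 ± 0.25, adjusted p = 1.63e-05.

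Kcna2, which encodes a voltage-gated potassium channel, was at 16.5 and 26.2 normalized counts in R339Q ID and 124 and 139 in R342C ID, against 219 and 151 in WT ID. Here R342C ID lay near WT ID and R339Q ID fell far below it (−3.07 against −0.47 on the log2 scale relative to WT ID). Aqp8, a water channel gene, showed 47.5 and 57.1 normalized counts in R339Q ID and 304 and 336 in R342C ID (log2 difference 2.60 ± 0.32, adjusted p = 2.03e-05). Trim50, a ubiquitin ligase gene, showed 22.3 and 44.0 normalized counts in R339Q ID and 222 and 247 in R342C ID (log2 difference 2.86 ± 0.33, adjusted p = 1.15e-05). Entpd3, an ecto-nucleotidase gene, differed by 2.78, and the pigment cell receptor gene Gpr143 by 2.36. Ripply3 (2.36), Zfr2 (2.21), Trim66 (2.17) and Card14 (2.24) lay above WT ID in R342C ID and below it in R339Q ID, although Card14 was not called in R339Q ID (adjusted p = 0.0571). Bhlhe41, a circadian repressor gene, was at 60.1 and 58.3 normalized counts in R339Q ID and 292 and 293 in R342C ID, and WT ID at 88.5 and 59.2 resembled R339Q ID. Over these 12 genes, 9 were below WT ID in R339Q ID and 6 were above it in R342C ID, each at adjusted p under 0.05 (limma). Over all genes tested the shares were 9.7% and 10.0%. The 12 were picked for a large gap between the lines, which by itself favours such counts, so they are not independent evidence.

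By the same rule, the 12 largest decreases were led by Rbfaos, annotated as an antisense RNA, and Id3, an inhibitor of bHLH transcription factors and a target of BMP signals. Id3 stood at 330.3 and 364.99 normalized counts in R339Q ID and 34.3 and 46.4 in R342C ID, a log2 difference of −3.09 ± 0.44, adjusted p = 7.63e-05. WT ID held 75.3 and 136 and WT IAA 422 and 553, so the R339Q ID libraries lay nearer to the cells without CTCF. Rbfaos stood at 436 and 439 normalized counts in R339Q ID and 43.4 and 58.0 in R342C ID, and at 76.1 and 77.2 in WT ID and 471 and 590.4 in WT IAA. The strand setting of the read counting is not known, so reads of Rbfaos and of its partner on the other strand cannot be told apart.

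Cd4, the T cell co-receptor gene, was at 786 and 661 normalized counts in R339Q ID and 118 and 100.91 in R342C ID, with log2 difference −2.71 ± 0.23, adjusted p = 6.31e-07. Its level in WT ID was 92.2 and 89.2 and in WT IAA 187 and 293, so R339Q ID exceeded both reference groups. Nlrp4c, a germ cell NLR family gene, was at 289.6 and 473 normalized counts in R339Q ID and 56.5 and 71.9 in R342C ID, while WT IAA held 1368 and 1655. The germline gene Tex19.2 (120.1 and 126 normalized counts in R339Q ID and 18.2 and 30.2 in R342C ID) and the neuroendocrine phosphatase gene Ptprn (1031 and 1234 normalized counts in R339Q ID and 290.1 and 201 in R342C ID) were at WT ID levels in R342C ID and at WT IAA levels in R339Q ID. The remaining 6 genes were Enox1 (−2.41), the retrotransposon-derived Rtl8c (−2.36), the 2'-5'-oligoadenylate synthetase family gene Oas1e (−2.24), the melanocortin receptor gene Mc5r (−2.20), Rimbp2 (−2.17) and Brinp3 (−2.14). Of the 12, 10 were above WT ID in R339Q ID and 4 were below it in R342C ID, against 11.8% and 13.3% of all genes tested. These counts too are favoured by the choice of genes for their gap between the lines. All 24 of these genes stayed called under every alternative run, with an adjusted p of at most 0.0409 when a library was left out.

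**Figure D1:**
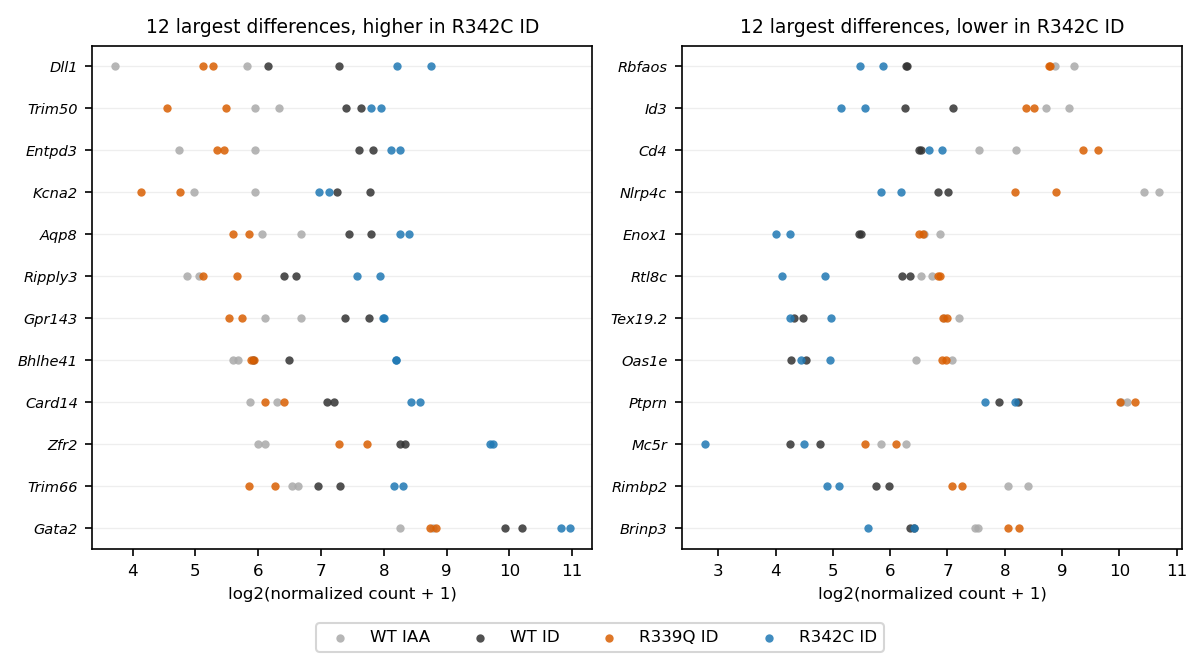
Level of the 12 genes most increased (left) and the 12 most decreased (right) in R342C ID against R339Q ID, as log2(normalized count + 1), 1 point per library and 2 libraries per group. Blue is R342C ID and orange R339Q ID, which by the choice of genes do not overlap, and the grey WT IAA points lie mostly on the R339Q ID side, as for Id3 at 422 and 553 against 330.3 and 364.99 in R339Q ID.

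Of the 32 lists, the one with the largest share of called members was the integrated stress response with amino acid supply. In this pathway, kinases that sense amino acid shortage or misfolded protein raise translation of the transcription factor ATF4, which then turns on genes for amino acid synthesis, transport and tRNA charging. Of 38 members, 35 were higher in R342C ID and 0 were lower, with a median difference of 0.74 against −0.02 over all genes tested. At that threshold 10.9% of all genes were called higher. Relative to WT ID the members had a median of −0.57 in R339Q ID, with 26 lower and 0 higher, and of 0.19 in R342C ID, with 4 higher and 0 lower. The count ranged from 28 to 33 when 1 library was left out and from 34 to 35 under the scalings and count tests named below. Of the 35 calls 28 held whichever library was left out, and the other 7 (Slc7a11, Cebpb, Ddit4, Slc7a1, Shmt2, Slc38a2 and Wars) were lost without at least 1 library. The list was drawn up with earlier results of these data known, so its direction is not independent evidence.

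Among the effectors, Chac1, a glutathione-degrading enzyme gene, was at 540.5 and 678 normalized counts in R339Q ID and 1796 and 1787 in R342C ID (log2 difference 1.56 ± 0.15, adjusted p = 2.99e-06). WT ID stood at 1593 and 1477 and WT IAA at 254 and 207, so the order of the means from low to high was WT IAA, R339Q ID, WT ID and R342C ID. Ddit3, which encodes the pro-apoptotic factor CHOP, was at 171 and 263 normalized counts in R339Q ID and 729 and 908 in R342C ID (log2 difference 1.93 ± 0.36, adjusted p = 8.12e-04). Trib3, a pseudokinase that feeds back on ATF4, was at 1215 and 1474 normalized counts in R339Q ID and 3378 and 3669.7 in R342C ID (log2 difference 1.40 ± 0.19, adjusted p = 6.05e-05), and Nupr1, a stress-induced nuclear protein gene, at 1239 and 1397 normalized counts in R339Q ID and 2745 and 3837 in R342C ID.

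Secreted and membrane members changed in the same direction. The glycoprotein hormone gene Stc2 was at 314 and 435 normalized counts in R339Q ID and 1309.8 and 1529.8 in R342C ID (log2 difference 1.93 ± 0.22, adjusted p = 1.30e-05), and the VLDL receptor gene Vldlr at 120.1 and 146 normalized counts in R339Q ID and 551 and 491 in R342C ID (log2 difference 1.96 ± 0.21, adjusted p = 7.76e-06). Fgf21, a metabolic hormone gene of low level here, was at 7.75 and 11.9 normalized counts in R339Q ID and 39.4 and 42.9 in R342C ID (log2 difference 1.99 ± 0.40, adjusted p = 0.00134), and it exceeded WT ID in R342C ID by 1.61. Vegfa, the vascular growth factor gene, showed a smaller log2 difference of 0.84 ± 0.09, adjusted p = 8.36e-06.

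Among the transcription factors of the pathway differences ranged widely. Atf4 was at 10860.0 and 11391 normalized counts in R339Q ID and 16052 and 16811 in R342C ID (log2 difference 0.56 ± 0.10, adjusted p = 7.26e-04), with WT ID at 17240.0 and 16182. Atf3 differed by 1.42 and Atf5 by 0.88, while Cebpg differed by 0.56 and Cebpb by 0.68 (adjusted p up to 0.197 without R339Q ID replicate 1 or R342C ID replicate 2). Serine synthesis and one-carbon genes were higher throughout, with Phgdh at 0.98, Psat1 at 0.89, Psph at 0.78, Aldh1l2 at 1.84, Mthfd2 at 0.81 and Shmt2 at 0.39. Of the transporter genes, Slc6a9 differed by 1.07, Slc7a11 by 1.00 and Slc3a2 by 0.80. The tRNA synthetase genes were called with Sars at 0.64, Nars at 0.53, Gars at 0.51, Aars at 0.40 and Wars at 0.29.

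3 members were not called. Asns, the asparagine synthetase gene and a widely used ATF4 target, was at 45008 and 39072 normalized counts in R339Q ID and 47476 and 47171 in R342C ID (log2 difference 0.17 ± 0.09, adjusted p = 0.179), with WT ID at 41304 and 43116. Cth had a log2 difference of 0.20 ± 0.13, adjusted p = 0.269. For Sesn2 it was −0.08. The members named beyond the first 4 by adjusted p (Chac1, Vldlr, Vegfa and Stc2) were chosen after their values were seen.

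**Figure D2:**
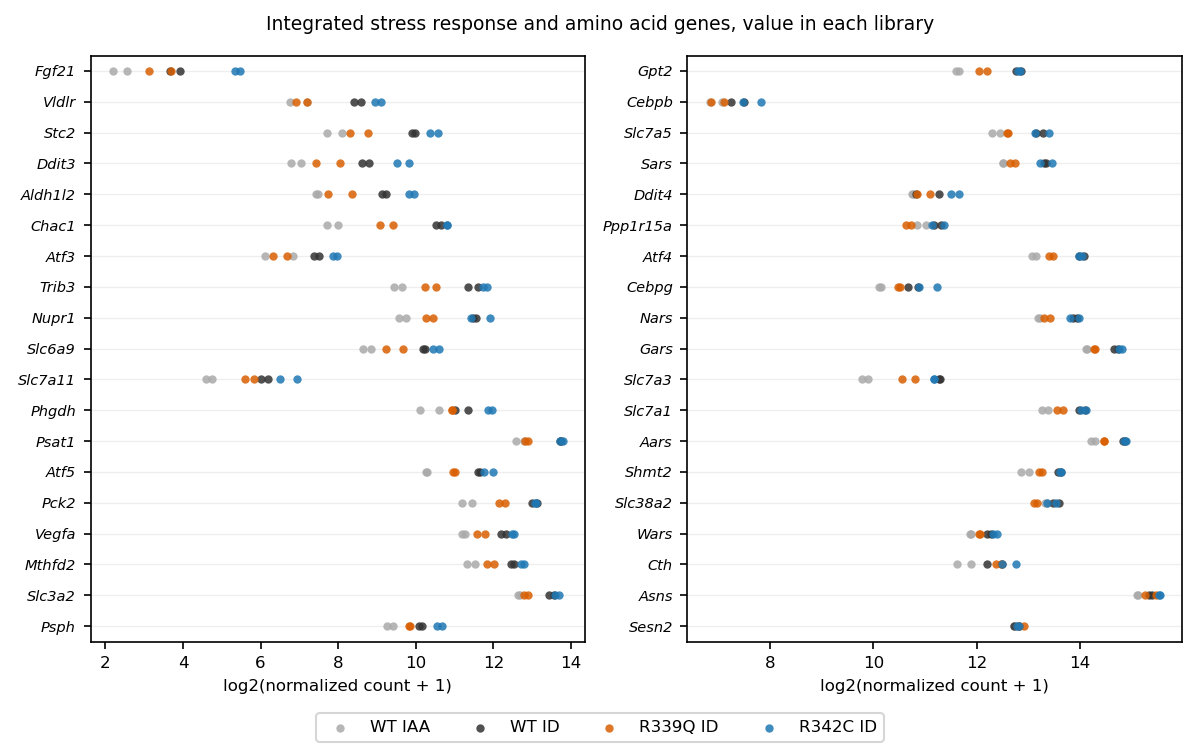
Level of the 38 integrated stress response and amino acid genes, as log2(normalized count + 1), 1 point per library. The genes run from the largest difference between R342C ID and R339Q ID (Fgf21, top left) to the smallest (Sesn2, bottom right). In most rows the orange R339Q ID points lie between the grey WT IAA points and the black WT ID points, as for Chac1, while the blue R342C ID points lie at or beyond WT ID.

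Because these genes moved together, their promoters (250 bases before to 50 after the start, RefSeq, GRCm38.p6) were searched on both strands for TGATGNAA, a form of the composite element that ATF4 binds with C/EBP partners. The element was found in 11 of the 32 list members with a promoter in the table (34.4%), against 330 of 12170 (2.71%) of the tested genes with one. Over all genes with a promoter, tested or not, it was found in 1219 of 27025 (4.51%). The list was composed of genes of the ATF4 pathway, so a high share there follows from its composition and says nothing of the mutant lines. Among all genes higher in R342C ID by at least 2-fold, which include list members such as Chac1 and Vldlr, the element was found in 27 of 312 (8.65%). Among those lower by at least 2-fold it was found in 6 of 246 (2.44%). The core of the CTCF motif was found in 3.36% of the tested genes' promoters, in 4.19% of those higher and in 2.85% of those lower. Among genes at least 2-fold higher it was found in 2.56%, below the share over tested genes, and among those at least 2-fold lower in 2.03%. In the stress response list it was found in 3 of 32 (9.38%). Neither pattern contains the other. A match describes letters in this window and is not evidence of binding.

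The stretch around the element is shown for 6 members, with the element in capitals (TTGCATCA is TGATGCAA read on the other strand) and 30 bases on either side, 5′ to 3′ on the gene's strand. They are Chac1 (chr2:119351019-119351086, plus strand), Nupr1 (chr7:126625543-126625610, minus), Vldlr (chr19:27216790-27216857, plus), Atf3 (chr1:191183406-191183473, minus), Slc7a11 (chr3:50443642-50443709, minus) and Fgf21 (chr7:45615592-45615659, minus). The element begins between 66 bases (Slc7a11) and 200 bases (Vldlr) before the start site.
Chac1: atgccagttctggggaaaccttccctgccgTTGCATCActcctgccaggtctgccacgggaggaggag
Nupr1: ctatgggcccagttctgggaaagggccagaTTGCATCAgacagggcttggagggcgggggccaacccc
Vldlr: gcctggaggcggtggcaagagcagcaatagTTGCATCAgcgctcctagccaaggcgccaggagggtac
Atf3: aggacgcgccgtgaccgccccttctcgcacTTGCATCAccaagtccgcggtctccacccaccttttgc
Slc7a11: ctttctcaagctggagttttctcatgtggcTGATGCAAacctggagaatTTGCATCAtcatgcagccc
Fgf21: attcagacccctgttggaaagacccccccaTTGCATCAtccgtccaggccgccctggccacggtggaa
All 6 were higher in R342C ID, by 1.00 (Slc7a11) to 1.99 (Fgf21), and Slc7a11 holds the element in both orientations.

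Chaperone genes went the other way. Of 30 heat shock and folding chaperone genes, 16 were lower in R342C ID and 1 was higher, with a median of −0.26. At that threshold 15.8% of all genes were called lower. Hspa8, the constitutive HSC70 chaperone, was at 62757 and 55955 normalized counts in R339Q ID and 23430.0 and 25453 in R342C ID (log2 difference −1.28 ± 0.14, adjusted p = 7.76e-06). WT ID held 33068 and 39540.0, so R339Q ID was above it (0.71) and R342C ID below it (−0.57). Hsph1, an HSP110 exchange factor gene, was at 7624 and 7578 normalized counts in R339Q ID and 3876 and 4829.6 in R342C ID (log2 difference −0.81 ± 0.11, adjusted p = 4.72e-05), and the small heat shock protein gene Hspb1 at 10353 and 8848 normalized counts in R339Q ID and 5565 and 6666 in R342C ID (log2 difference −0.65 ± 0.11, adjusted p = 4.58e-04).

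The co-chaperone gene Dnaja1 differed by −0.61, the inducible Hspa1b by −0.61, the endoplasmic reticulum chaperone gene Hspa5 by −0.54 and the mitochondrial Hspd1 by −0.45. Hspd1 rests on the replicates unequally, with 33561 and 31882 normalized counts in R339Q ID and 19868 and 28994 in R342C ID, and was not called without R342C ID replicate 1 or without R339Q ID replicate 1 (adjusted p up to 0.246). The member called higher was Herpud1, an endoplasmic reticulum stress gene that ATF4 also induces, at 601 and 605 normalized counts in R339Q ID and 1126 and 1156 in R342C ID (log2 difference 0.92 ± 0.16, adjusted p = 5.18e-04). The count of lower members was 9 without R339Q ID replicate 1 and 10 without R342C ID replicate 1.

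Targets of Wnt signalling, which the GSK3 inhibitor in the medium keeps active, were lower in R342C ID where called: 7 of 21 were lower (33.3%) and 0 higher, with a median of −0.22. Over all genes tested 15.8% were called lower and 26.7% in either direction. Dkk1, a secreted Wnt antagonist gene, was at 1049 and 1095 normalized counts in R339Q ID and 322 and 373 in R342C ID (log2 difference −1.62 ± 0.23, adjusted p = 7.48e-05), and at 808 and 773 in WT ID. Sp5, a direct target, was at 884 and 1049 normalized counts in R339Q ID and 449 and 344 in R342C ID (log2 difference −1.29 ± 0.24, adjusted p = 8.29e-04), and both lines were below WT ID at 1455 and 1769. Notum, another secreted antagonist gene, was at 786 and 775 normalized counts in R339Q ID and 472 and 317 in R342C ID (log2 difference −1.01 ± 0.18, adjusted p = 4.79e-04), and Axin2, a feedback inhibitor gene, at 5337 and 5984 normalized counts in R339Q ID and 4106 and 4275 in R342C ID (log2 difference −0.43 ± 0.09, adjusted p = 0.00138). Myc, Wnt8a and Tcf7 were the other 3 called, at −1.04, −1.28 and −0.32. The call of Myc was lost without R342C ID replicate 2 (adjusted p = 0.0527), that of Wnt8a without R342C ID replicate 1 (adjusted p = 0.0694) and that of Tcf7 with TPM. Ccnd1 (−0.13), Lef1 (0.60) and Cdx1 (−0.02) were among the 14 that did not pass.

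In the pluripotency network 8 of 27 core and naive genes were lower in R342C ID and 3 were higher (40.7% called against 26.7% of all genes, median −0.09). Nanog was at 50734 and 46878 normalized counts in R339Q ID and 37666 and 35346 in R342C ID (log2 difference −0.42 ± 0.08, adjusted p = 0.00125), with WT ID at 35872 and 36562, so R339Q ID was the line that departed. Pou5f1 differed by −0.37 and Zfp42 by −0.46, while Sox2 did not pass (log2 difference −0.09 ± 0.08, adjusted p = 0.411). Dppa2, which primes bivalent promoters, was at 3412 and 3200.5 normalized counts in R339Q ID and 1809 and 1762 in R342C ID (log2 difference −0.89 ± 0.09, adjusted p = 5.97e-06), and Klf5 at 12115 and 12571 normalized counts in R339Q ID and 18657 and 18055 in R342C ID (log2 difference 0.57 ± 0.07, adjusted p = 1.30e-05) was among the 3 higher. Nodal, the ligand gene that keeps cells able to form mesendoderm, was at 4093 and 3387 normalized counts in R339Q ID and 1836 and 1700.3 in R342C ID (log2 difference −1.08 ± 0.15, adjusted p = 7.02e-05), and the primed-state genes Foxd3 and Dnmt3b differed by −1.06 and −0.51. Of 16 formative and primed genes 2 were higher and 4 lower (37.5% called), with members from −1.06 to 1.40. Of 14 mesendoderm genes 2 were higher and 2 lower (28.6% called). Tbx6 was among the higher, at 1.90 and 2.75 TPM in R339Q ID and 4.24 and 4.21 TPM in R342C ID. The call of Tbx6 was lost under 5 of 15 alternatives, among them the 4 libraries alone. Krt8 and Tubb3, which carried the marker sums given above, differed by −1.31 and −1.49. Of 18 trophectoderm genes 2 were higher, Gata2 among them, and 5 were lower (38.9% called). The part of marker-expressing cells of other types in these results was not tested.

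Of 25 cholesterol synthesis genes 8 were higher in R342C ID and 0 lower (32.0% against 10.9% of all genes called higher, median 0.12), among them Cyp51 at 2544 and 2424 normalized counts in R339Q ID and 3809 and 4144 in R342C ID (log2 difference 0.68 ± 0.10, adjusted p = 8.16e-05), Dhcr7 (0.66), Msmo1 (0.35) and Lss (0.33). Srebf2, which encodes the pathway's master regulator, differed by 0.33 (adjusted p up to 0.163 without R339Q ID replicate 2 or R342C ID replicate 1), while Hmgcs1 (−0.16) did not pass. Relative to WT ID the list had a median of −0.39 in R339Q ID and −0.18 in R342C ID. Without R339Q ID replicate 2 the count was 5.

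**Figure D3:**
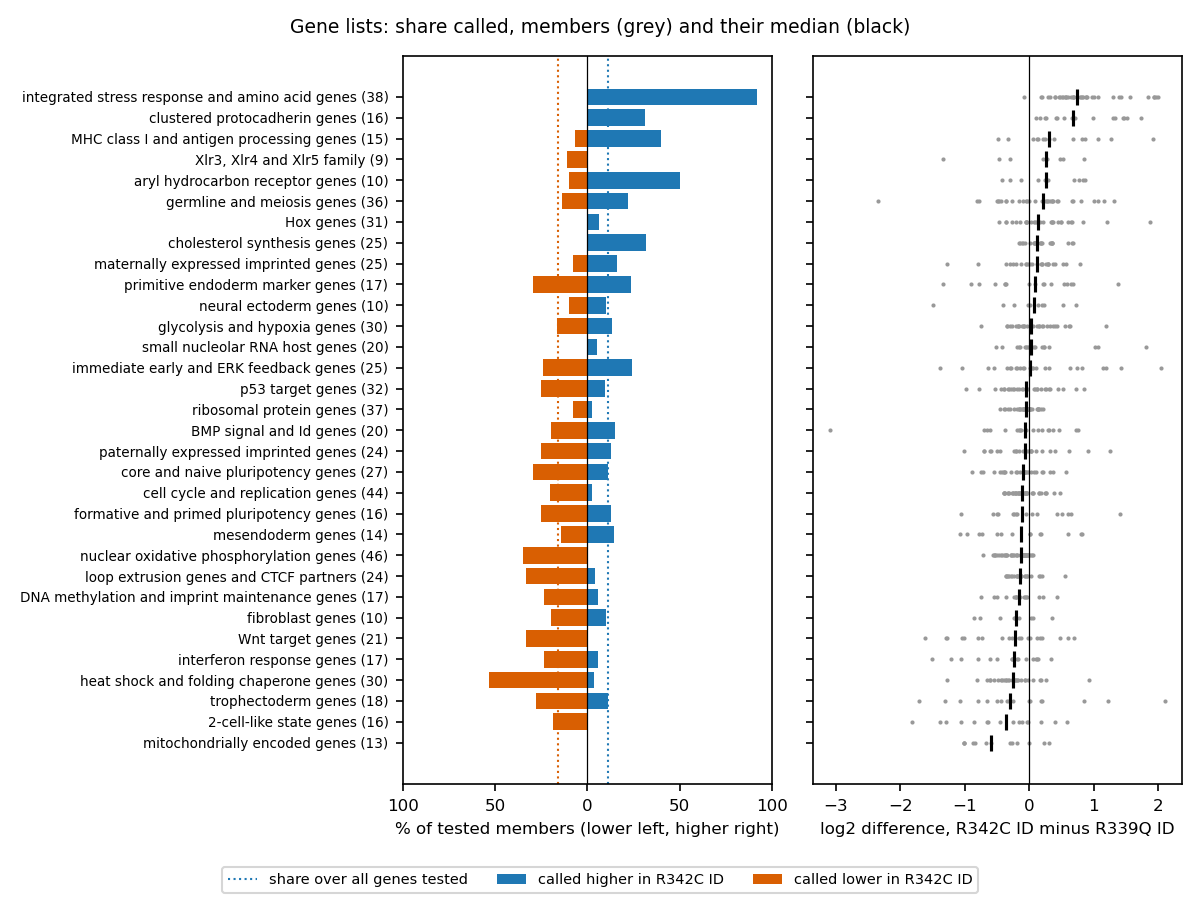
Left, share of the tested members of each gene list called higher (blue, to the right) or lower (orange, to the left) in R342C ID, with the shares over all genes tested as dotted lines (10.9% and 15.8%) and the number tested in brackets. Right, the log2 difference of each member (grey) and the list median (black bar), from 0.74 for the integrated stress response to −0.60 for mitochondrially encoded genes.

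Of 25 immediate early and ERK feedback genes 6 were higher in R342C ID and 6 lower (48.0% called against 26.7% of all genes, median 0.01). With TPM 6 were higher and 3 lower. The calls of Fos, Fosl1, Jun, Ier3, Nr4a1, Myc and Phlda1 were lost without at least 1 library. Members ran from −1.38 to 2.03, and Myc, given above, was among the lower. Of the higher, the phosphatase gene Dusp1 was at 485 and 598 normalized counts in R339Q ID and 1120.1 and 1249 in R342C ID (log2 difference 1.13 ± 0.14, adjusted p = 1.67e-05). Another phosphatase gene, Dusp4, was at 43.6 and 65.4 normalized counts in R339Q ID and 222 and 222 in R342C ID (log2 difference 2.03 ± 0.39, adjusted p = 9.81e-04). Of 15 MHC class I and antigen processing genes 6 were higher and 1 lower (46.7% called against 26.7% of all genes, median 0.31), including H2-K1 at 649 and 643 normalized counts in R339Q ID and 979 and 1101 in R342C ID (log2 difference 0.68 ± 0.13, adjusted p = 8.07e-04) and B2m at 0.39, a call lost without R339Q ID replicate 2 or R342C ID replicate 1 (adjusted p up to 0.157). Of the 7 calls in that list 1 held whichever library was left out, and higher members numbered 2 without R342C ID replicate 1, 3 without R339Q ID replicate 2 or R342C ID replicate 2 and 4 without R339Q ID replicate 1. BMP ligands diverged, with Bmp7 higher (0.76) and Bmp4 lower (−0.71, adjusted p = 0.0701 without R339Q ID replicate 1). Of 20 small nucleolar RNA host genes Snhg17 alone was called, at 283 and 289 normalized counts in R339Q ID and 967 and 1042 in R342C ID (log2 difference 1.81 ± 0.22, adjusted p = 1.52e-05), with WT ID at 1017 and 1045 and WT IAA at 148 and 162.

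Respiratory genes depended on single libraries. Of 46 nuclear oxidative phosphorylation genes 16 were lower and 0 higher (median −0.14), led by Atp5g3 at 7378 and 6762 normalized counts in R339Q ID and 4570.3 and 5202 in R342C ID (log2 difference −0.53 ± 0.08, adjusted p = 9.09e-05). Without R339Q ID replicate 1 the count was 3 and without R342C ID replicate 1 it was 5. Cycs, the cytochrome c gene, shows the spread, with 4115 and 3854 normalized counts in R339Q ID and 1660.0 and 3564 in R342C ID. The 13 mitochondrially encoded genes had a median of −0.60 and none was called. Their direction turned with R342C ID replicate 1, without which the median was 0.12 with 1 higher and 0 lower, while without R342C ID replicate 2 it was −0.98 with 8 lower. Cell cycle genes had 1 higher and 9 lower of 44, ribosomal protein genes 1 and 3 of 37, and p53 targets 3 and 8 of 32, beside 10.9% higher and 15.8% lower of all genes. These counts moved with the scaling and with single libraries. With TPM, higher and lower genes numbered 3 and 3 for the cell cycle, 3 and 1 for ribosomal proteins and 4 and 5 for p53 targets. With quantile normalization they numbered 6 and 5, 4 and 1, and 4 and 6 in the same order. The surplus of lower members in these lists therefore depends on the scaling. Lower cell cycle genes numbered 2 without R339Q ID replicate 1 and 4 without R342C ID replicate 1. Lower p53 targets numbered 3 without R339Q ID replicate 1 and 3 without R342C ID replicate 1. Lower ribosomal protein genes numbered 0 without R339Q ID replicate 1, 1 without R339Q ID replicate 2 or R342C ID replicate 1, and 11 without R342C ID replicate 2.

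Loci at which CTCF sites are known to govern expression gave mixed results. Of the 16 clustered protocadherin genes tested 5 were higher (31.2%) and 0 lower, with a median of 0.68. Over all genes tested 10.9% were called higher and 26.7% in either direction. Pcdhgb8 was at 8.72 and 8.32 normalized counts in R339Q ID and 41.9 and 22.04 in R342C ID (log2 difference 1.72 ± 0.43, adjusted p = 0.00612). Pcdhga11 was at 23.2 and 19.02 normalized counts in R339Q ID and 74.2 and 48.7 in R342C ID (log2 difference 1.47 ± 0.39, adjusted p = 0.00935). These are low values, 27 further members were at 0 in all 4 libraries, and without R342C ID replicate 1 none was called. Their sequences are alike, so the authors' counting could split reads among them. In the Xlr3, Xlr4 and Xlr5 family on chromosome X, 1 of 9 tested members was called, Xlr5a at 14.5 and 19.02 normalized counts in R339Q ID and 5.05 and 6.96 in R342C ID (log2 difference −1.35 ± 0.30, adjusted p = 0.00264). The family median was 0.26, and it was 0.64 with 4 members higher without R342C ID replicate 1 and −0.21 without R342C ID replicate 2. The call of Xlr5a was lost from the 4 libraries alone. For Xlr5a both lines were far below WT ID (248 and 229.6), by −3.76 and −5.11, and the family median relative to WT ID was −3.76 in R339Q ID and −3.48 in R342C ID.

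Among 24 paternally expressed imprinted genes 3 were higher and 6 lower (37.5% called), and among 25 maternally expressed ones 4 were higher and 2 lower (a called share below the 26.7% of all genes). Higher paternally expressed genes numbered 1 without R339Q ID replicate 1 and lower ones 4. Among maternally expressed genes 2 were higher without R339Q ID replicate 1, R339Q ID replicate 2 or R342C ID replicate 1, and 0 or 1 lower. Plagl1, a zinc finger factor gene, was at 2856 and 3142 normalized counts in R339Q ID and 5221 and 6011 in R342C ID (log2 difference 0.90 ± 0.08, adjusted p = 6.31e-07), both lines below WT ID at 8129.8 and 7883. Impact was at 12371 and 12186 normalized counts in R339Q ID and 7227 and 7944 in R342C ID (log2 difference −0.70 ± 0.08, adjusted p = 8.36e-06), with R339Q ID at the WT ID level of 13533 and 12764. Igf2r, the maternally expressed receptor gene, was at 6861 and 7151 normalized counts in R339Q ID and 9916 and 10263 in R342C ID (log2 difference 0.53 ± 0.08, adjusted p = 1.65e-04), and here R342C ID was above WT ID (0.61). Peg3 was at 458 and 522 normalized counts in R339Q ID and 677 and 835 in R342C ID, with log2 difference 0.62 ± 0.19, adjusted p = 0.0216, a call lost without R339Q ID replicate 1 or R342C ID replicate 2, and both lines were far below WT ID at 3038 and 5036. Of 24 loop extrusion genes and CTCF partners 1 was higher and 8 lower (against 15.8% of all genes lower), led by Chd8 (−0.37) and Pds5b (−0.34). Of these 9 calls 2 held whichever library was left out, and lower members numbered 2 without R339Q ID replicate 1 and 5 without R342C ID replicate 1 or with TPM.

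Along the genome, autosome medians ran from −0.06 (chromosome 11) to 0.02, and chromosome X stood at −0.10 with 38 genes higher and 119 lower of 595. Over windows of 10 Mb with at least 10 tested genes (266 windows) medians ran from −0.63 to 0.39. The lowest were chrX:110000001-120000000, with 5 of 10 genes lower, and chr5:80000001-90000000, with 10 of 16 lower at a median of −0.62. Relative to WT ID, chr17:70000001-80000000 had medians of 0.78 in R339Q ID and 0.69 in R342C ID. For chr17:80000001-90000000 they were 0.98 and 0.94, and for chr5:150000001-160000000 −0.89 and −0.50. Comparisons with WT ID in these windows carry such a shift in both lines, and its cause was not tested. Among neighbouring tested genes that were both called, 909 of 1408 pairs (64.6%) had the same direction, where the split of all calls into 2038 higher and 2953 lower would give 51.7% for unrelated genes. Runs of at least 4 neighbours called in the same direction numbered 27 (9 higher, 18 lower) and held 116 genes.

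The longest run was on chr5:88554462-89239653 and held Utp3, Rufy3, Grsf1, Mob1b, Dck and Slc4a4, all lower in R342C ID. Slc4a4, a bicarbonate transporter gene, was at 223 and 221 normalized counts in R339Q ID and 89.3 and 89.3 in R342C ID (log2 difference −1.30 ± 0.25, adjusted p = 8.09e-04), and Grsf1, an RNA-binding protein gene, at 25577 and 22382 normalized counts in R339Q ID and 12741 and 14263 in R342C ID (log2 difference −0.83 ± 0.12, adjusted p = 7.37e-05). Utp3 at 2640.4 and 2330.2 normalized counts in R339Q ID and 1251 and 2236 in R342C ID was not called without R342C ID replicate 1 or without R339Q ID replicate 1, nor after centring along the chromosome (adjusted p up to 0.372 when a library was left out). Rufy3 was lost under 9 of 15 alternatives, among them edgeR, TPM, quantile normalization and centring along the chromosome, which leaves the run broken there. On chr6:83692806-83775813 the 5 neighbours Vax2os, Vax2, Atp6v1b1, 1700124L16Rik and Tex261 were higher, with a median of 1.41, although Atp6v1b1 was lost under 9 of 14 alternatives and whichever library was left out. Tex261 was at 548 and 458 normalized counts in R339Q ID and 1472 and 1208 in R342C ID (log2 difference 1.41 ± 0.15, adjusted p = 5.52e-06), with WT ID at 1568 and 1436 and WT IAA at 292 and 364, and Vax2, an eye homeobox gene, was at 82.3 and 91.5 normalized counts in R339Q ID and 159 and 182 in R342C ID (log2 difference 0.96 ± 0.22, adjusted p = 0.00346). Vax2os and Vax2 overlap on opposite strands in name and position, so their reads may be shared.

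Neighbouring desaturase genes were higher on chromosome 19. The run at chr19:10001669-10196877 held Rab3il1, Fads3, Fads2 and Fads1, and Fads2, the delta-6 desaturase gene, was at 1027 and 835 normalized counts in R339Q ID and 1905 and 1801 in R342C ID (log2 difference 1.00 ± 0.16, adjusted p = 2.01e-04). The run at chr19:44147637-44545864 held Pkd2l1, Scd3, Scd2, Scd1 and Sec31b, of which Scd3 was lost under 8 of 15 alternatives and Sec31b whichever library was left out, and Scd1 was at 11287 and 9068 normalized counts in R339Q ID and 17771 and 16603 in R342C ID (log2 difference 0.76 ± 0.14, adjusted p = 5.34e-04). On chr15:74994877-75272235 the surface antigen genes Ly6a, Ly6c1, Ly6c2 and Ly6f were lower (Ly6f lost under 5 of 13 alternatives), with Ly6c1 at 551 and 452 normalized counts in R339Q ID and 98.9 and 143 in R342C ID (log2 difference −2.06 ± 0.25, adjusted p = 1.63e-05). These family members resemble each other in sequence, so the split of reads among them is uncertain.

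The 2 lines were also placed between the reference groups. For 4222 of the 4991 called genes the WT IAA mean was nearer to R339Q ID than to R342C ID, against 12866 of all 18713 genes. The WT ID mean was nearer to R342C ID for 2468 called genes and nearer to R339Q ID for 2523. WT ID lay between the 2 lines for 65.5% of the called genes and for 37.1% of all genes. Called genes were picked for a gap between the lines, which by itself favours a further group lying between them. WT IAA did so for 37.9% of the called genes and for 26.1% of all genes.

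The difference between WT ID and WT IAA shares no library with the difference between the mutant lines, although the same fit gave both, and it was set beside it after the data had been seen. It combines the presence of transgene CTCF with that of doxycycline, which cannot be told apart in these groups. Of the 3868 genes called between WT ID and WT IAA (20.7%, with 10.7% higher and 9.96% lower), 2108 were also called between the mutant lines, which is 54.5% of the former and 42.2% of the latter. In 2089 of the 2108 (99.1%) the gene was higher in R342C ID where it was higher in WT ID, or lower in both; over all genes tested 70.4% had the same sign. Of the 329 genes at least 2-fold higher in WT ID than in WT IAA, 225 were higher in R342C ID and 0 lower, with a median difference of 0.99. Of the 492 at least 2-fold lower in WT ID, 223 were lower in R342C ID and 3 higher, with a median of −0.77. Across the 18713 genes, which are not independent replicates, Pearson's r was 0.558 and Spearman's rho 0.545. Without R339Q ID replicate 1, 1249 genes were called in both and 1243 had the same sign.

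**Figure D4:**
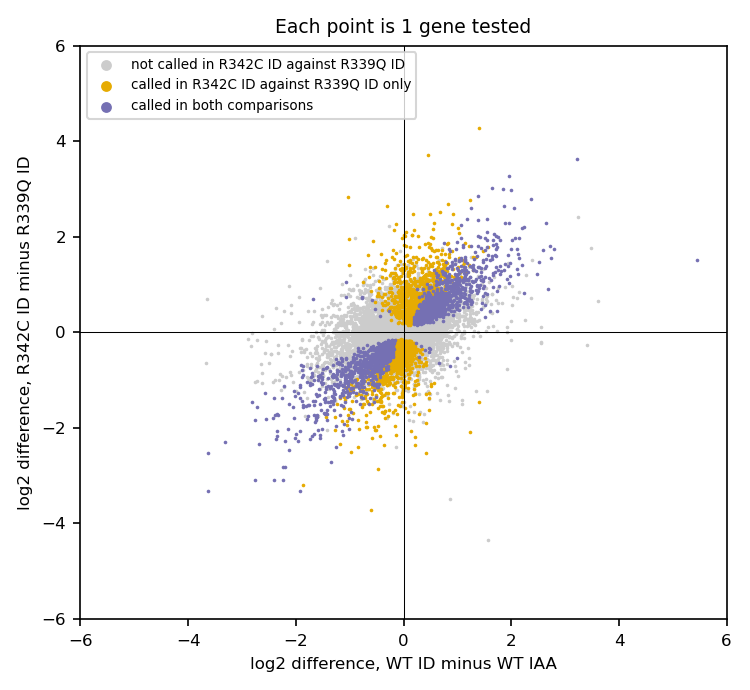
Log2 difference between the mutant lines (R342C ID minus R339Q ID, vertical) against that between the reference groups (WT ID minus WT IAA, horizontal), 1 point per gene for 18713 genes. Purple points, 2108 genes called in both, lie almost all in the lower left and upper right corners (2089 of them).

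Set beside the other pairs of mutant lines, the pair from finger 3 was neither the closest nor the farthest. Between 2 of the 9 mutant lines the count of called genes ran from 208 (R377C and S354F, 1.11%) to 10244 (R342C and R448Q, 54.7%), and R339Q against R342C ranked 23 of 36 by count and 25 of 36 by genes at least 2-fold apart. S354F called 1509 genes (8.06%) against R339Q and 1075 (5.74%) against R342C, and R377C called 1259 (6.73%) and 1742 (9.31%). Both substitutions of finger 3 were apart from each other at more genes than either was from S354F or R377C. These counts share libraries and were not tested against each other.

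**Figure D5:**
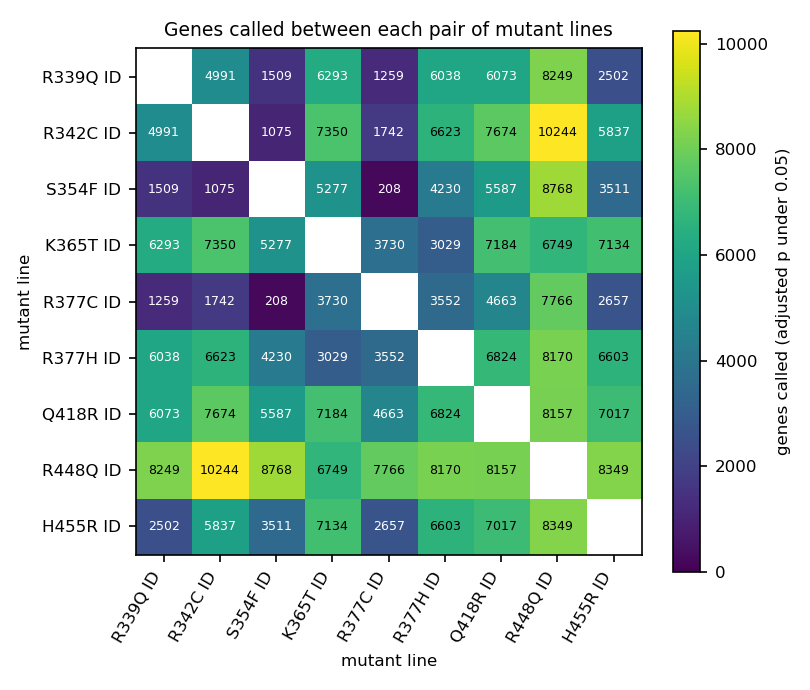
Number of genes called (adjusted p under 0.05) between each pair of the 9 mutant lines, each with 2 libraries. The cell for R339Q ID and R342C ID holds 4991, between the lowest count of 208 and the highest of 10244.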

How the data were processed

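Trim Galore, STAR, DESeq2 and mm10 are named by the submitters' processing notes. Which counter and strand setting the authors used is not stated in those notes, nor are tool versions. The signal the authors deposited is a normalized count, in which 100% of values were whole multiples of 1 step per library (tolerance 0.001), so read counts could be recovered. The deposited TPM values served as an alternative. The deposited table of 22 libraries was reduced to the 18713 genes averaging 10 or more, and log2(normalized count + 1) was fitted with limma 3.58.1 (R 4.3.3, 1 coefficient per group, trend, 11 residual and 8.13 prior degrees of freedom). The contrast was R342C ID minus R339Q ID, with Benjamini-Hochberg adjustment. A value after ± is a standard error, and fold changes on this scale understate those of low genes. Alternatives were edgeR 4.0.16 and DESeq2 1.42.0 on recovered reads, other pseudocounts, filters and scalings, centring on neighbouring genes, the 4 libraries alone, the replicate block and leaving out each library. The tables held 0 columns of other samples. Of 865 list entries 862 matched a symbol in the tables and 733 were tested. GENCODE M21 gave 1 position for 53180 of 55291 symbols. Named by rule were the 12 largest called differences per direction (mean of at least 50, no overlap, no model or clone names), up to 4 called members per list by adjusted p (or 2 of highest mean where none was called), the Xlr family, Ctcf, genes near silent in 1 line, runs of neighbours and the 3 smallest called differences of abundant genes. The members and lists were chosen with earlier results of these data known. The fits were also tested on simulated data.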

Additional observations from a re-analysis of the deposited data

Results flagged for a closer look

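A test of the difference itself, the contrast between the 2 mutant lines, found 4991 genes whose departure from WT ID differed between R339Q ID and R342C ID, at adjusted p under 0.05 with limma. With 2 libraries per group, no group was large enough for a search for single libraries that stand apart.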

How the results depend on the processing

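Of the 289 called genes covered by the naming rule or the text, 0 changed direction under the alternatives run, 173 stayed called under each, and 114 were lost when 1 library was left out. Under the other alternatives 69 of these 289 genes were lost, some of them also among the 114. Most were named for their values in these same data, so their staying called is not independent evidence. The count of called genes was 4964 to 5109 with another pseudocount, quantile normalization, edgeR, DESeq2 or the replicate block. It was 4830 after centring along chromosomes, 4767 with a mean of at least 50, 4167 with TPM, 4168 with no filter and 3631 from the 4 libraries alone. Genes lower in R342C ID numbered 1774 with TPM, for which the cause was not tested, and 1924 from the 4 libraries alone, where lower chaperone genes numbered 10 and fewer samples entered the fit. Leaving out 1 library gave 2229 to 4588 genes called, 935 to 1623 higher and 1294 to 2965 lower. It gave 1249 to 1839 genes also called between WT ID and WT IAA, of which 1243 to 1822 had the same sign (an alternative chosen after seeing the data). It gave 28 to 33 stress response, 5 to 7 cholesterol, 9 to 18 chaperone and 6 to 7 Wnt target genes. In these fits the lone library is assumed to vary like the other groups. Replicate numbers did not pair the libraries of R339Q ID with those of R342C ID: the correlation over genes of their replicate differences was −0.017. Over all 55 pairs of groups it ran from −0.248 to 0.382 with a median of 0.023, and 10 exceeded 0.1. With the replicate block 5013 genes were called, 2048 higher and 2965 lower. Short genes were called less often, 16.8% of the shortest of 4 length classes against 32.9% of the longest.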

Other observations

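Some genes were nearly silent in 1 line and present in the other (mean under 5 normalized counts against at least 50). Gm45847, a long noncoding RNA gene, was at 2.91 and 3.57 normalized counts in R339Q ID and 48.4 and 60.3 in R342C ID, with 16.8 and 14.04 in WT ID (log2 difference 3.70 ± 0.65, adjusted p = 4.65e-04, limma). Gm48222, another long noncoding RNA gene, was at 73.6 and 92.7 in R339Q ID and at 2.02 and 4.64 in R342C ID, a log2 difference of −4.34 ± 1.64 that did not pass (adjusted p = 0.0568). Its WT IAA libraries held 9.83 and 95.2. Cyp4x1, a cytochrome P450 gene, was at 122 in R339Q ID replicate 1 and 3.57 in replicate 2, against 0 and 3.48 in R342C ID, and did not pass (adjusted p = 0.113).

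The aryl hydrocarbon receptor list had 5 genes higher and 1 lower in R342C ID of 10 tested (median 0.26, against −0.02 over all genes tested). Over all genes tested 10.9% were called higher and 15.8% lower. Ahr, the receptor gene, was at 259 and 262 normalized counts in R339Q ID and 437 and 447.7 in R342C ID (log2 difference 0.76 ± 0.15, adjusted p = 8.84e-04). Of the 6 calls, 4 (Ahrr, Nqo1, Tiparp and Aldh3a1) were lost when 1 library was left out. Of 31 tested Hox genes 2 were higher and 0 lower (6.45% called, against 26.7% of all genes). Hoxa4 was at 20.3 and 20.2 normalized counts in R339Q ID and 77.2 and 75.4 in R342C ID, and Hoxa3 at 257 and 277.01 against 472 and 476. The call of Hoxa3 was lost without R339Q ID replicate 1.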
